A study of Rattus norvegicus with 19 samples.

Results

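The genes described here are 10 enzymes that open or close the reactive groups of drugs, steroids and dietary compounds in the liver: the carboxylesterases Ces2c and Ces1d, the epoxide hydrolases Ephx1 and Ephx2, the aldo-keto reductases Akr1c14, Akr7a3 and Akr1b8, the carbonyl reductase Cbr1, the aldehyde dehydrogenase Aldh1a1 and the alcohol dehydrogenase Adh1. They were chosen by name, and all 10 of the 10 were measured, out of 14217 genes with a probe set of their own. A gene with several probe sets was read from the one with the highest mean over all arrays. Platform symbols were updated through RefSeq gene IDs, and 9 members were matched by the updated symbol. The remaining one, Adh1, is a synonym of Adh1c in RefSeq and was matched through it.

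Liver RNA from the left lateral lobe of Wistar Han rats was hybridised to 19 Affymetrix Rat230_2 arrays, all from postnatal day 4. DE-71 (a flame retardant mixture of pentabromodiphenyl ethers) was given to dams by gavage in corn oil from gestation day 6 to postnatal day 4. Vehicle (corn oil alone, 5 arrays) was compared with 0.1 mg/kg per day (5 arrays), 15 mg/kg per day (4 arrays, replicates 2 to 5) and 50 mg/kg per day (5 arrays), to ask how transcript levels in the liver change with the dose. All groups share strain, diet, corn oil and gavage of the dam, who arrived at 11 to 12 weeks of age. The labels do not say whether the liver is that of a pup or of the dam, nor whether arrays of a group come from separate litters, and p-values then reflect only how these samples vary, which may be technical. The labels give the sex as female, but the Y-linked transcript Eif2s3y read 9.55 to 10.07 on the log2 scale on each of the 19 arrays, and Xist, the RNA that silences an X chromosome in female cells, read 3.88 to 4.29. Alpha-fetoprotein (Afp), a liver protein of fetal and newborn life, read 14.47 to 14.70.

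Carboxylesterases cut esters and amides into an acid and an alcohol or amine, and many sit in the endoplasmic reticulum of the hepatocyte. Epoxide hydrolases add water to epoxides, which cytochromes P450 form from aromatic and unsaturated compounds, and so turn them into diols. Aldo-keto reductases and carbonyl reductases use NADPH to reduce aldehydes and ketones to alcohols, while alcohol and aldehyde dehydrogenases mostly run the other way, from alcohol to aldehyde to acid. Liver expression of several of these enzymes is known to respond to the receptors CAR and PXR, which sense foreign compounds, to the aryl hydrocarbon receptor (AhR) or to the oxidant-sensing factor NRF2.

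Promoter sequence is shown for the 3 members that rose at 50 mg/kg with all arrays and for Akr7a3 and Aldh1a1, which rose once 3 libraries that stand apart were left out. Each line gives the 250 bases before the RefSeq transcription start, on the gene's own strand, in the rat assembly GRCr8. Capitals mark matches, on either strand, to 4 motifs: GCGTG, the core to which AhR binds; TGACNNNGC, the core of the antioxidant response element that NRF2 binds; and AGGTCA and AGTTCA, single hexamers that nuclear receptors bind.
Ces2c, chr1:270376951-270377200, plus strand: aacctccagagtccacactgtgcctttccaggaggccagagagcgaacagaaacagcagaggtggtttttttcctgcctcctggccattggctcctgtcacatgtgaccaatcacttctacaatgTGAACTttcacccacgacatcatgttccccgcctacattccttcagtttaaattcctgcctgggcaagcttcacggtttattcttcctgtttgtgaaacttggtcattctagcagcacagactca
Ephx1, inner start, chr13:95263118-95263367, minus strand: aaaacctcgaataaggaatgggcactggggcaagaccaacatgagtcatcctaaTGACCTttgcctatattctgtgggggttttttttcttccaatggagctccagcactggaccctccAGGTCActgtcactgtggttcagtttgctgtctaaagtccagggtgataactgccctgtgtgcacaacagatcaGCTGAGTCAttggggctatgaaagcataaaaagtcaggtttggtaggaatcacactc
Akr1c14, chr17:71083185-71083434, minus strand: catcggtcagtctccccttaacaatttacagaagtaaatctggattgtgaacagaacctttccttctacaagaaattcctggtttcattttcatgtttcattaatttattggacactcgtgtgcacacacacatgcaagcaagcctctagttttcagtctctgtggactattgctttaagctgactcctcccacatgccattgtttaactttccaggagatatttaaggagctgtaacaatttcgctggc
Akr7a3, chr5:156876471-156876720, plus strand: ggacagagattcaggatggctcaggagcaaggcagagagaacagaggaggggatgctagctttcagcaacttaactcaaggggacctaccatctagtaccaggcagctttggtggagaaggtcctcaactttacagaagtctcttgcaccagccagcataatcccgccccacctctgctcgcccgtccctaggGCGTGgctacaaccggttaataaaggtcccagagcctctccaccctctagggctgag
Aldh1a1, chr1:227537370-227537619, plus strand: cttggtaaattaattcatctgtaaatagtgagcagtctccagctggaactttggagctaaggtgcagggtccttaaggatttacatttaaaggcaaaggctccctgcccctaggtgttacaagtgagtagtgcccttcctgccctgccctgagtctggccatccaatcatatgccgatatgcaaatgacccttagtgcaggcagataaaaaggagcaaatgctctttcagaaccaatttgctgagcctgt

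In Ces2c the only match was AGTTCA on the reverse strand, read here as TGAACT, 125 to 120 bases before the start. The inner Ephx1 start held AGGTCA on the reverse strand from base -196 and on the forward strand from base -131, and TGACNNNGC on the reverse strand from base -57 to base -49, where the line reads GCTGAGTCA. Ephx1 has an outer start too, at chr13:95275853-95276102, whose window held none of the 4 motifs. Akr1c14 and Aldh1a1 had no match, which says only that these letters are not in these windows. The Aldh1a1 window lies inside the locus of the gene, which begins at base 227426939. It thus belongs to an inner start, and the bases before the outer end of that locus were not searched. Akr7a3 held GCGTG on the forward strand from base -57. Among the other members, Ces1d held GCGTG from base -135, Cbr1 held it 3 times, and no motif was found in Akr1b8 or Adh1c. Of the 33469 promoter windows of the table, GCGTG was present in 25.9%, AGGTCA in 14.1%, AGTTCA in 12.2% and TGACNNNGC in 10.1%. A match is a description of the letters, not of binding. The matches differed from member to member among those that rose, and 9 of the 10 members had a window.

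Before the members are compared, 3 libraries need to be set apart. The library labelled 0.1 mg/kg replicate 1 read 14.06 in Cyp1a1, the AhR-induced monooxygenase, where the other libraries of its group read 7.19 to 8.42, vehicle 7.10 to 8.36 and 50 mg/kg 14.11 to 14.30. In Cyp3a23-3a1, a monooxygenase induced through PXR and CAR, it read 14.06 against 13.36 to 13.52 in the rest of its group and 14.17 to 14.26 at 50 mg/kg. In the members whose 50 mg/kg arrays did not overlap vehicle, it lay within the 50 mg/kg range. It read 7.37 in Ces2c (50 mg/kg 7.13 to 8.19), 12.72 in Ephx1 (12.62 to 13.13) and 12.78 in Akr1c14 (12.63 to 13.04). In Ephx2, Aldh1a1, Akr7a3, Akr1b8 and Adh1 it also lay within that range, but there the range overlapped vehicle. In Ces1d and Cbr1 it lay outside. It stood above the other 4 arrays of its own group in Ces2c, Ces1d, Ephx1, Akr1c14 and Akr7a3. The share of all probe sets with such positions was not counted. The remaining pair, vehicle replicate 2 and 0.1 mg/kg replicate 2, were nearly equal: their root mean square log2 difference over all probe sets was 0.128, the smallest of 171 pairs of arrays, with 0.197 for the next. Over all probe sets the median absolute log2 difference was 0.070 in this pair and 0.103 in the next. They are not identical, and among the members Ces2c (5.75 and 6.35) and Akr1b8 (5.47 and 5.25) differed most between them. That pair carried kidney transcripts. The mean of 8 measured kidney markers of 9 listed was 9.55 and 9.45 in them. It was 6.67 in 50 mg/kg replicate 3 and 4.29 to 4.66 on the other 16 arrays. Slc34a1, a phosphate transporter of the kidney tubule, read 12.09 in both. The pair also had the highest means of all arrays for 12 exocrine pancreas markers (8.31 in both). The same held for 4 bile duct markers (9.02 and 9.04). The part of each tissue in the members' values on this pair therefore cannot be told apart. Whether labels were exchanged or 1 sample stands in 2 groups was not tested. Groups and n are as labelled. The members' differences at each dose are given with all 19 arrays and, where a library moves them, without these 3, a choice made after the data had been seen.

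Hepatocyte markers were present on every array (7 measured of 8 listed, mean 14.46 to 14.55; albumin 15.01 to 15.06), at the top of the range, where differences are compressed and a change in the share of hepatocytes could not be read. Markers of other tissues varied inside the groups: 10 skeletal muscle markers averaged 4.48 to 11.22 in vehicle, 4.42 to 5.03 at 0.1 mg/kg, 4.78 to 7.47 at 15 mg/kg and 4.56 to 9.34 at 50 mg/kg. The 12 measured markers of the exocrine pancreas averaged 5.07 to 8.31, 5.19 to 8.31, 5.19 to 7.82 and 5.05 to 5.20 in the same order, and 6 intestinal markers reached 8.94 in 15 mg/kg replicate 5 against 5.44 to 6.08 elsewhere. Markers of blood cells had lower medians in each dosed group than in vehicle, with overlapping ranges. In vehicle, 3 measured neutrophil markers of 6 listed averaged 11.76 to 12.63 (median 12.54). They averaged 11.78 to 12.55 at 0.1 mg/kg (median 12.05) and 12.06 to 12.33 at 15 mg/kg (median 12.125). At 50 mg/kg they averaged 11.30 to 12.05 (median 11.98). For 5 erythroid markers of 7 listed, vehicle ranged from 9.07 to 11.28 (median 11.10) and 50 mg/kg from 9.15 to 11.28 (median 10.12). Between them, 0.1 mg/kg ranged from 10.03 to 10.84 (median 10.47) and 15 mg/kg from 9.87 to 10.52 (median 10.38). The part of these blood cell levels in the members' differences was not tested. In such whole-tissue samples, fewer cells of a type and less RNA per cell cannot be told apart. The submitters number their arrays, and 4 of the 5 arrays of 50 mg/kg stand among the 7 arrays numbered 1 to 8, where each other group has 1 array. The other 12 arrays are numbered 9 to 20.

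At 50 mg/kg, 3 of the 10 members rose and 0 fell: Ces2c, Ephx1 and Akr1c14. Over all 31042 probe sets tested, 1.61% passed (adjusted p under 0.05 in limma), 1.22% as rises and 0.383% as falls. When the 3 libraries were left out 5 members rose, Aldh1a1 and Akr7a3 being added, where 1.59% of all probe sets passed and 1.17% rose. The same 5 rose in that fit with a block of array numbers, where 0.696% of all probe sets passed. The median log2 difference of the 10 members was 0.52, beside 0.02 over all probe sets. Since the members were chosen with earlier results of these data known, such shares and medians describe the list only. The groups did not overlap in the same 3 members that rose, with vehicle below 50 mg/kg, as held for 3.21% of all probe sets in that direction. Without the 3 libraries the 5 members that rose did not overlap vehicle, beside 3.77% of all probe sets. At an unadjusted p under 0.05, 4 members were higher (Akr7a3 being the fourth), beside 9.57% of all probe sets.

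**Figure D1:**
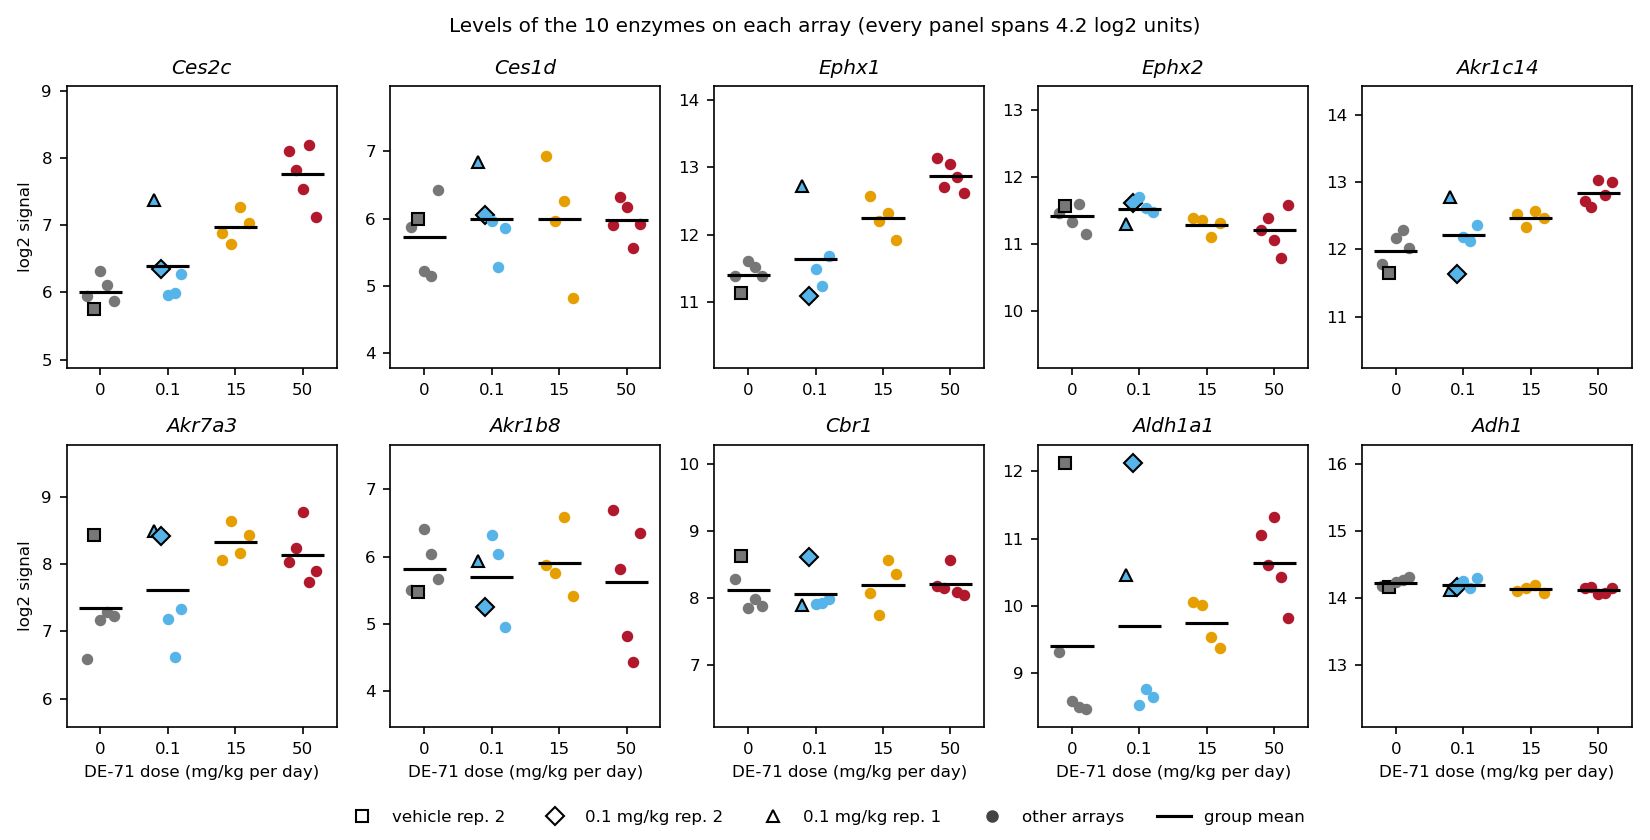
Log2 signal of the 10 enzymes (vertical axis, each panel spanning the same width) against the dose of DE-71 in mg/kg per day. Each point is 1 array, the line is the group mean, and outlined squares, diamonds and triangles mark vehicle replicate 2, 0.1 mg/kg replicate 2 and 0.1 mg/kg replicate 1. In Ces2c, Ephx1 and Akr1c14 all 5 arrays at 50 mg/kg lie above all 5 vehicle arrays, while Ephx2, Cbr1 and Adh1 stay within a narrow band.

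Ces2c, a carboxylesterase of the CES2 family, which favours esters with a small acid and a large alcohol part, had the largest rise among the members that passed with all arrays. It is read by probe set 1368905_at, and the gene lies at chr1:270377201-270384768 (GRCr8). The vehicle arrays read 5.95, 5.75, 6.32, 6.11 and 5.88 in log2 signal (replicates 1 to 5). At 0.1 mg/kg the values were 7.37, 6.35, 5.97, 5.99 and 6.27. The 15 mg/kg arrays read 6.88, 6.71, 7.27 and 7.03. At 50 mg/kg they read 8.10, 7.82, 7.54, 8.19 and 7.13. All arrays of 15 and 50 mg/kg lay above all vehicle arrays, and the lowest array at 50 mg/kg fell inside the range of 15 mg/kg. The mean went from 6.00 ± 0.219 to 7.76 ± 0.434 (SD, n = 5 each), so that the transcript rose 3.37-fold (difference of log2 means 1.75, SE 0.237, limma adjusted p = 0.00123). Each SE pools the variation of the 4 dose groups. The rise was 3.23-fold without the 3 libraries (difference 1.69, SE 0.186, adjusted p = 0.000283).

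The liver carboxylesterase Ces1d, of the CES1 family that includes triglyceride hydrolases, did not follow Ces2c. Its probe set, 1370363_at, was dim, with a mean of 5.92 near the middle of all probe sets. The gene lies at chr19:30046494-30085039. Vehicle arrays ranged from 5.14 to 6.43 (median 5.87), those of 0.1 mg/kg from 5.28 to 6.84 (median 5.97), those of 15 mg/kg from 4.82 to 6.92 (median 6.11) and those of 50 mg/kg from 5.56 to 6.32 (median 5.93). These ranges overlapped throughout, and the difference of 50 mg/kg from vehicle was 0.24 with a 95% interval of -0.47 to 0.96 (limma adjusted p = 0.765), and 0.31 without the 3 libraries (adjusted p = 0.732).

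Ephx1, the microsomal epoxide hydrolase, which turns epoxides of aromatic compounds into dihydrodiols, rose from an already bright signal. It is read by 1387669_a_at, and the gene lies on the minus strand at chr13:95246079-95275852. Vehicle arrays read 11.38, 11.13, 11.61, 11.52 and 11.38. At 0.1 mg/kg the values were 12.72, 11.09, 11.49, 11.23 and 11.68. The 15 mg/kg arrays read 12.57, 12.20, 12.31 and 11.92, and those of 50 mg/kg 13.13, 12.71, 13.06, 12.86 and 12.62. The 3 groups of vehicle, 15 and 50 mg/kg were fully separate and stood in the order of dose, and the first library of 0.1 mg/kg stood among those of 50 mg/kg. From 11.40 ± 0.179 in vehicle to 12.88 ± 0.220 at 50 mg/kg, the rise was 2.77-fold (log2 fold change 1.47, SE 0.227, limma adjusted p = 0.00351), and 2.65-fold without the 3 libraries (1.40, SE 0.136, adjusted p = 9.39e-05). The call ended once the levels of muscle, pancreas, kidney and intestine transcripts entered the fit (log2 fold change 1.26, adjusted p = 0.0937; the range over the alternatives was 2.98e-05 to 0.0937).

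Ephx2, the soluble epoxide hydrolase of cytosol and peroxisomes, which hydrolyses epoxides of fatty acids, was about as bright (mean 11.36, probe set 1369663_at, chr15:44465447-44503157) and did not pass. Vehicle arrays lay between 11.15 and 11.59, those of 0.1 mg/kg between 11.30 and 11.70, those of 15 mg/kg between 11.10 and 11.39 and those of 50 mg/kg between 10.80 and 11.58. The difference of 50 mg/kg from vehicle was -0.21 (95% interval -0.48 to 0.05, limma adjusted p = 0.437), or -0.18 without the 3 libraries (-0.46 to 0.11, adjusted p = 0.593), so a rise of the size seen in Ephx1 lies outside both intervals. In every array of 50 mg/kg Ephx1 stood above its highest vehicle array, whereas all 5 Ephx2 arrays lay below the highest vehicle array.

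Akr1c14 encodes the rat 3-alpha-hydroxysteroid dehydrogenase of liver cytosol, which reduces steroid ketones and also acts on bile acid precursors and on dihydrodiols of aromatic hydrocarbons. Its leading probe set is 1370708_a_at, and the gene lies on the minus strand at chr17:71066197-71083184. Vehicle arrays read 11.78, 11.65, 12.17, 12.28 and 12.02. At 0.1 mg/kg the values were 12.78, 11.63, 12.18, 12.13 and 12.37. The 15 mg/kg arrays read 12.53, 12.33, 12.57 and 12.47, and those of 50 mg/kg 12.72, 12.63, 13.04, 12.81 and 13.01. In this probe set too vehicle, 15 and 50 mg/kg did not overlap, although 12.28 in vehicle and 12.33 at 15 mg/kg nearly met. The mean rose 1.81-fold, from 11.98 ± 0.262 to 12.84 ± 0.180 (log2 fold change 0.86, SE 0.164, limma adjusted p = 0.0132), and 1.71-fold without the 3 libraries (0.78, SE 0.109, adjusted p = 0.00208). The other probe sets of the gene, 1396933_s_at and 1370563_at, rose by 0.75 and 0.72 (adjusted p = 0.0258 and 0.0418). In both, however, the arrays of 50 mg/kg overlapped those of 15 mg/kg. The differences between these doses were 0.26 and 0.17 (limma adjusted p = 0.772 and 0.906). Akr1c14 belongs to a cluster of closely related genes, and the suffix _s_at is given to probe sets that may also match relatives, so signal from other Akr1c members cannot be separated here. The call ended when arrays 1 to 8 and 9 to 20 formed a block (0.81, adjusted p = 0.0942) and with the tissue levels as covariates (0.73, adjusted p = 0.135; the range over the alternatives was 0.00208 to 0.135).

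Akr7a3, an aldo-keto reductase known in rat for reducing the dialdehyde of aflatoxin B1, was higher at both upper doses but passed only when libraries were left out. It is read by 1368121_at and lies at chr5:156876721-156884599. Vehicle arrays read 6.58, 8.43, 7.18, 7.30 and 7.23. At 0.1 mg/kg the values were 8.50, 8.42, 7.19, 6.61 and 7.34. The 15 mg/kg arrays read 8.06, 8.64, 8.17 and 8.43, and those of 50 mg/kg 8.04, 8.24, 8.77, 7.74 and 7.90. The high values of vehicle and 0.1 mg/kg were those of the 3 libraries set apart, and without them neither group reached the lowest array of 15 or 50 mg/kg. With all arrays the difference of 50 mg/kg from vehicle was 0.79 (95% interval 0.06 to 1.53, limma adjusted p = 0.284). Once the 3 libraries were left out, Akr7a3 rose 2.10-fold (a log2 difference of 1.07, SE 0.213, adjusted p = 0.0192). Without only the near-equal pair it did not pass (1.07, adjusted p = 0.0908). Its mean at 15 mg/kg, 8.33 ± 0.262 (SD, n = 4), was not below that at 50 mg/kg, 8.14 ± 0.398 (SD, n = 5), in contrast to the order of Ces2c, Ephx1 and Akr1c14; the difference between these doses was -0.19 (95% interval -0.97 to 0.59).

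Akr1b8, an aldo-keto reductase of lipid aldehydes and retinal, was dim (mean 5.75, probe set 1370902_at, chr4:63964421-63976995). Its arrays ranged from 5.47 to 6.42 in vehicle, 4.95 to 6.32 at 0.1 mg/kg, 5.42 to 6.58 at 15 mg/kg and 4.43 to 6.69 at 50 mg/kg. The spread was widest at 50 mg/kg, and the difference from vehicle was -0.20 (95% interval -1.00 to 0.61, limma adjusted p = 0.836), or -0.28 without the 3 libraries (adjusted p = 0.810).

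Cbr1, the cytosolic carbonyl reductase of quinones, prostaglandins and anthracycline drugs, did not pass (probe set 1368037_at, chr11:46346405-46348815). Vehicle arrays lay between 7.85 and 8.62, those of 0.1 mg/kg between 7.91 and 8.61, those of 15 mg/kg between 7.74 and 8.57 and those of 50 mg/kg between 8.05 and 8.57. The highest array of vehicle and that of 0.1 mg/kg were the kidney-bearing pair (8.62 and 8.61), and the highest at 50 mg/kg was replicate 3 (8.57), which also carried kidney transcripts. At 15 mg/kg, however, replicate 4 read 8.57 and replicate 5 8.36 with kidney markers at 4.54 and 4.29, no higher than elsewhere. The difference was 0.08 (95% interval -0.29 to 0.46, limma adjusted p = 0.851), or 0.21 without the 3 libraries (adjusted p = 0.568).

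Aldh1a1, the cytosolic retinal dehydrogenase, which also oxidises aldehydes of lipid peroxidation, depended on which libraries were compared. It is read by 1387022_at and lies at chr1:227426939-227579497. Vehicle arrays read 9.32, 12.13, 8.59, 8.50 and 8.46. At 0.1 mg/kg the values were 10.45, 12.12, 8.52, 8.76 and 8.65. The 15 mg/kg arrays read 10.05, 10.01, 9.54 and 9.37, and those of 50 mg/kg 11.05, 10.60, 11.32, 10.43 and 9.81. The kidney-bearing pair stood above all other arrays, and the rest of vehicle lay below every array of 15 and 50 mg/kg. With all arrays the difference of 50 mg/kg was 1.24 with a wide interval (-0.22 to 2.70, limma adjusted p = 0.403).

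**Figure D2:**
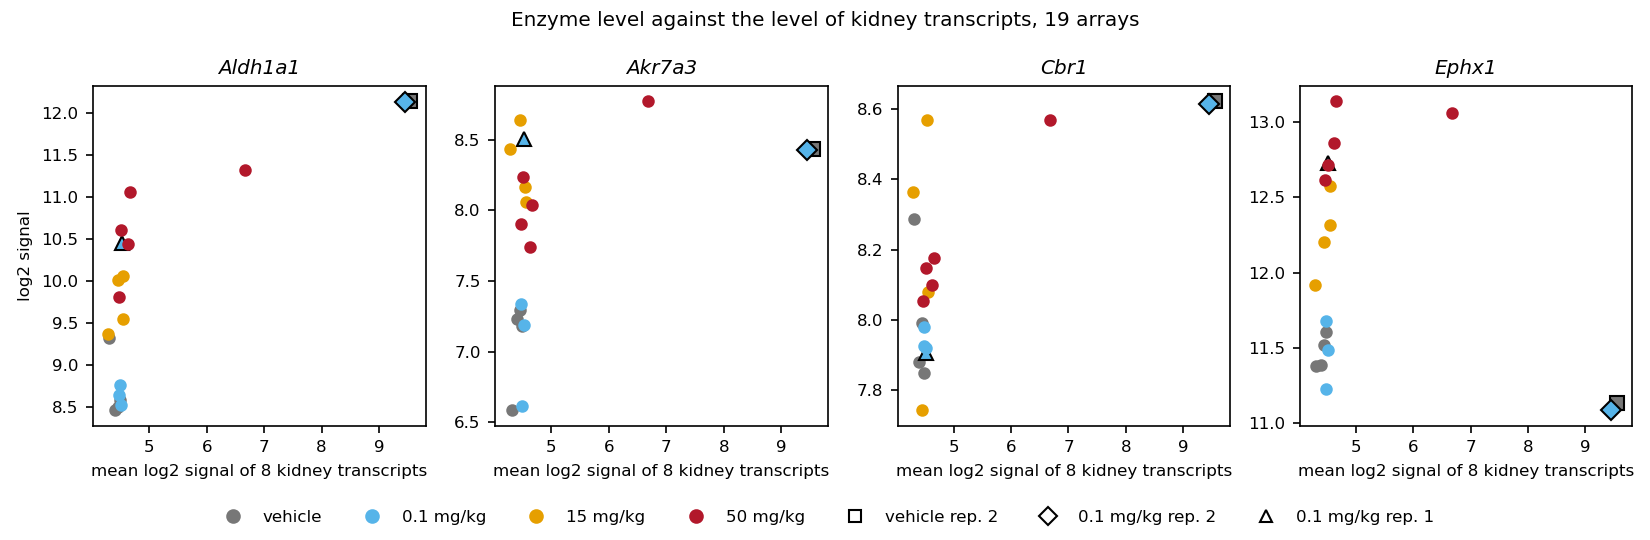
Log2 signal of Aldh1a1, Akr7a3, Cbr1 and Ephx1 (vertical axes) against the mean log2 signal of 8 kidney transcripts on the same array (horizontal axes), 1 point per array, coloured by dose, with the 3 libraries set apart outlined. Vehicle replicate 2 and 0.1 mg/kg replicate 2 lie at the far right, at 9.55 and 9.45, and carry the 2 highest values of Aldh1a1, at 12.13 and 12.12.

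Leaving out the 3 libraries, Aldh1a1 rose 3.80-fold at 50 mg/kg (a log2 difference of 1.93, SE 0.261, 95% interval 1.37 to 2.48, adjusted p = 0.00168), from 8.72 ± 0.405 (SD, n = 4) to 10.64 ± 0.582 (SD, n = 5). Leaving out only the near-equal pair gave the same difference, with an adjusted p of 0.0169. The third library of 50 mg/kg, whose kidney markers averaged 6.67, had the highest Aldh1a1 of its group (11.32), and without it as well as the 3 libraries the difference was 1.76 (adjusted p = 0.00416). With the tissue levels as covariates on all 19 arrays the gene did not pass (1.47, adjusted p = 0.192).

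Adh1, the class I alcohol dehydrogenase that oxidises ethanol and retinol, was the brightest member. Its mean of 14.18 stood at the top of the range of the arrays, where differences are compressed. The gene is read by 1368021_at (chr2:229470703-229482291). Arrays lay between 14.17 and 14.31 in vehicle, 14.12 and 14.30 at 0.1 mg/kg, 14.08 and 14.20 at 15 mg/kg and 14.06 and 14.17 at 50 mg/kg. The difference of 50 mg/kg was -0.11 (95% interval -0.22 to 0.00, limma adjusted p = 0.332). The other probe set of the gene, 1378260_at, has a mean of 9.62 and gave a difference of opposite sign, 0.11 (95% interval -0.30 to 0.53). Without the 3 libraries the leading probe set was lower on every 50 mg/kg array than on every vehicle array, and it still did not pass (adjusted p = 0.306); 2.21% of all probe sets separated in that way.

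**Figure D3:**
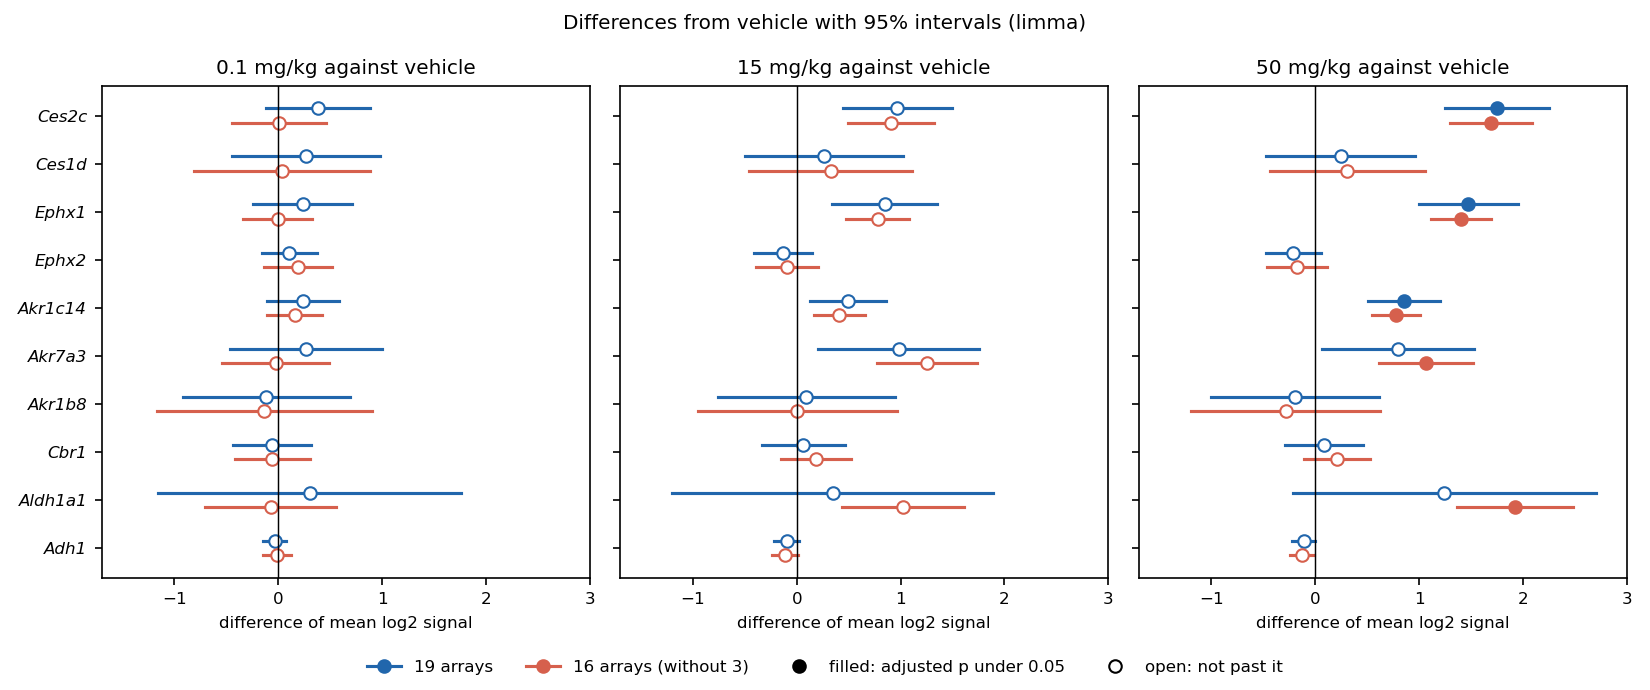
Differences of mean log2 signal from vehicle at each dose (horizontal axis) for the 10 enzymes, with 95% intervals from limma; blue is the fit of all 19 arrays, red that of 16 arrays without the 3 libraries set apart, and filled points have an adjusted p under 0.05. At 50 mg/kg 3 points are filled with all arrays and 5 without the 3 libraries, and at the lower doses none is.

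At 15 mg/kg none of the 10 members passed, and neither did any of the 31042 probe sets (percent passed 0). At an unadjusted p under 0.05 in limma, 4 members were higher (Ces2c, Ephx1, Akr1c14 and Akr7a3), beside 6.61% of all probe sets. The groups did not overlap in Ces2c, Ephx1 and Akr1c14, as held in that direction for 2.21% of all probe sets. Their differences from vehicle were 0.97 (95% interval 0.44 to 1.50, adjusted p = 0.422) for Ces2c, 0.85 (0.34 to 1.35, adjusted p = 0.427) for Ephx1 and 0.49 (0.13 to 0.86, adjusted p = 0.445) for Akr1c14. Akr7a3 differed by 0.98 (0.20 to 1.76, adjusted p = 0.448) and Aldh1a1 by 0.34 (-1.20 to 1.89, adjusted p = 0.879). Without the 3 libraries those values became 1.25 (adjusted p = 0.0842) for Akr7a3 and 1.03 (adjusted p = 0.358) for Aldh1a1. In both genes, as in Ces2c, Ephx1 and Akr1c14, every array of 15 mg/kg then lay above vehicle, beside 2.85% of all probe sets. Still no member passed in that fit, beside 0.0322% of all probe sets. With 50 mg/kg replicate 3 left out too, Akr7a3 passed (1.25, adjusted p = 0.0412), which changes only the estimate of the spread in this comparison. The remaining 5 members differed by -0.13 to 0.26.

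At 0.1 mg/kg none of the members passed, and the share of all probe sets that passed was 0. No member had an unadjusted p under 0.05 in limma, beside 2.46% of all probe sets. The median difference of the members from vehicle was 0.24 with all arrays and -0.01 without the 3 libraries. Ces2c differed by 0.39 with all arrays, 0.14 without 0.1 mg/kg replicate 1 and 0.01 without the 3 libraries. For Ephx1 these values were 0.24, -0.03 and -0.01. On the remaining 3 arrays of the dose, Ces2c lay between 5.97 and 6.27 and Ephx1 between 11.23 and 11.68, overlapping vehicle.

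Between 50 and 15 mg/kg none of the members passed, nor any probe set (percent passed 0). At an unadjusted p under 0.05 in limma, 2 members (Ces2c and Ephx1) were higher at 50 mg/kg, beside 4.31% of all probe sets. Ces2c stood 0.78 higher at 50 mg/kg (95% interval 0.25 to 1.31, adjusted p = 0.465) and Ephx1 0.62 higher (0.12 to 1.13, adjusted p = 0.562). For Akr1c14 the difference was 0.37 (0.00 to 0.73, adjusted p = 0.647) and for Aldh1a1 0.90 (-0.65 to 2.45, adjusted p = 0.849). Leaving out the 3 libraries does not touch these groups and changes only the estimate of the spread: adjusted p was then 0.219 for Ces2c, 0.206 for Ephx1, 0.319 for Akr1c14 and 0.313 for Aldh1a1. Groups did not overlap in Ephx1 and Akr1c14, and in 1.84% of all probe sets in that direction. For Akr1c14 this held in the leading probe set only.

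**Figure D4:**
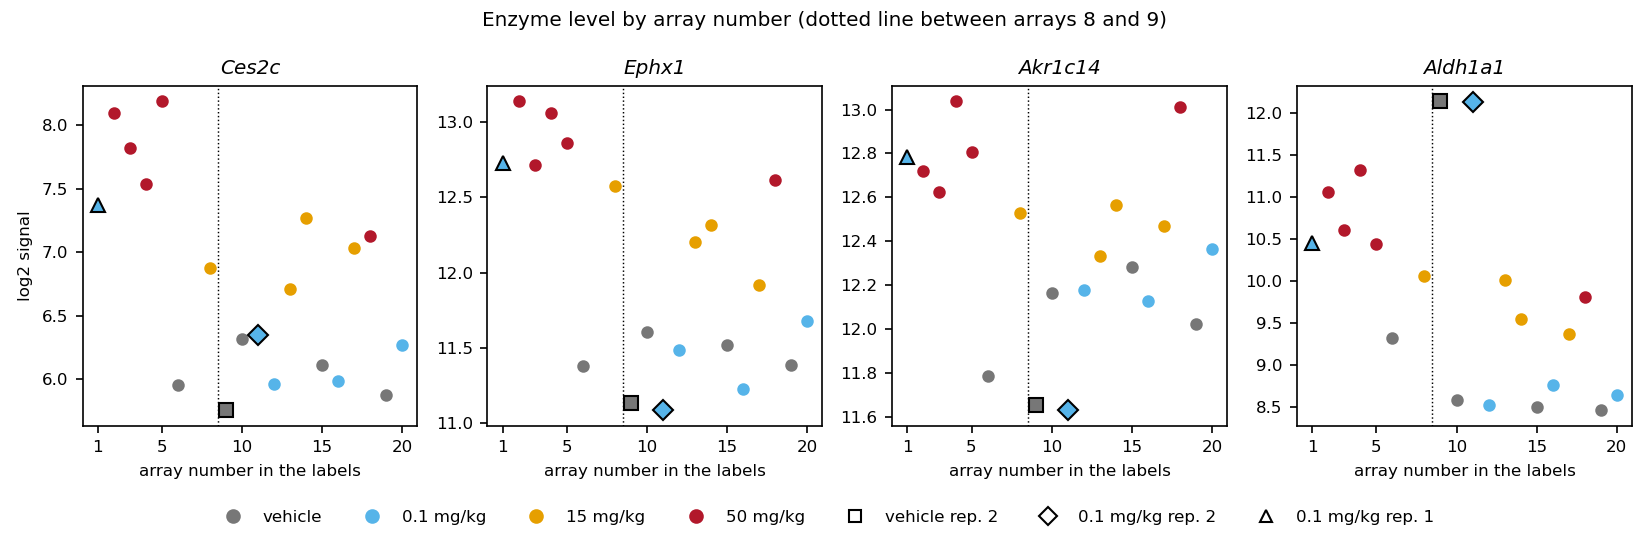
Log2 signal of Ces2c, Ephx1, Akr1c14 and Aldh1a1 (vertical axes) against the submitters' array number (horizontal axes), coloured by dose, with the 3 libraries set apart outlined; the dotted line parts arrays 1 to 8 from 9 to 20. On both sides of the line the 50 mg/kg arrays lie above the vehicle arrays in Ces2c, Ephx1 and Akr1c14.

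Since most arrays of 50 mg/kg have low numbers, the members were also read on each side of that line. Among arrays 1 to 8, Ces2c read 5.95 in the only vehicle array and 7.54 to 8.19 in the 4 arrays of 50 mg/kg, and among arrays 9 to 20 it read 5.75 to 6.32 in 4 vehicle arrays and 7.13 in the only 50 mg/kg array. Ephx1 read 11.38 against 12.71 to 13.13 on the early arrays, and 11.13 to 11.61 against 12.62 on the late ones. Akr1c14 read 11.78 against 12.63 to 13.04, and then 11.65 to 12.28 against 13.01. Each side has 1 array in 1 of the groups, so these values allow no test within a side. With the side as a block the difference was 1.47 for Ces2c (limma adjusted p = 0.0160) and 1.16 for Ephx1 (adjusted p = 0.0337). Akr1c14 did not pass with that block on all arrays (0.81, adjusted p = 0.0942). It passed with the block once the 3 libraries set apart were left out too. What the array numbers stand for is not stated in the labels.

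Other genes of these families were counted from a list of relatives. Of 64 listed 47 were measured: 3 carboxylesterases, 1 epoxide hydrolase, 12 aldo-keto reductases, 7 carbonyl reductases, 3 alcohol dehydrogenases, 16 aldehyde dehydrogenases and 5 other ester hydrolases. At 50 mg/kg 0 rose and 1 fell of the 47, beside the 1.22% of all probe sets that rose and the 0.383% that fell. Aldh1b1, a mitochondrial aldehyde dehydrogenase, fell from 11.38 ± 0.203 to 10.56 ± 0.456 (SD, n = 5 each; log2 fold change -0.82, SE 0.174, limma adjusted p = 0.0250), with a difference of -0.87 without the 3 libraries (adjusted p = 0.0302). That call ended without vehicle replicate 1 (adjusted p = 0.0579) or 5 (0.0594), without 50 mg/kg replicate 1 (0.0600) or 4 (0.0694), with the compared groups alone (0.0780), with the block of array numbers (0.148), with that block without the 3 libraries (0.114) and with the tissue levels as covariates (0.172). Akr7a2, the relative of Akr7a3 that reduces succinic semialdehyde, was 0.55 higher (adjusted p = 0.118) and rose without the 3 libraries (0.68, adjusted p = 0.0167). At 15 and 0.1 mg/kg none of the 47 passed. Their median difference at 50 mg/kg was 0.06, near the 0.02 of all probe sets.

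Among relatives that did not pass at 50 mg/kg, the 3 with the smallest adjusted p, picked after the values were seen, were Aldh7a1 (0.46, limma adjusted p = 0.0600), Aldh1l1 (0.42, adjusted p = 0.0911) and Akr1b7 (0.92, adjusted p = 0.103). Without the 3 libraries they differed by 0.48, 0.45 and 0.79 (adjusted p = 0.0856, 0.0753 and 0.188). The 3 most negative differences among those that did not pass were Dhrs7 at -0.49 (adjusted p = 0.315), Aldh1a2 at -0.44 (adjusted p = 0.740) and Akr1b1 at -0.40 (adjusted p = 0.309). Without the 3 libraries these were -0.65, 0.08 and -0.28 (adjusted p = 0.0969, 0.912 and 0.340), and that of Aldh1a2 thus changed sign. The carboxylesterases Ces1c and Ces1e differed by 0.47 (adjusted p = 0.602) and 0.01 (adjusted p = 0.989), and by 0.23 and -0.20 without the 3 libraries (adjusted p = 0.799 and 0.754).

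Likeness of pattern was measured as the mean over 19 arrays of the absolute difference between genes, after each gene's vehicle mean was subtracted. Among members, Ces2c and Ephx1 were 0.229 apart, and Ephx1 and Akr1c14 0.320. Over all genes, Por, the NADPH-cytochrome P450 reductase, was nearest to Ephx1 at 0.147, followed by the acute phase protein gene Crp at 0.176 and Mnd1, a meiotic recombination gene, at 0.181, where the median gene was 0.727 away. The same 3 genes were nearest to Ces2c, in the order Mnd1 (0.205), Crp (0.214) and Por (0.289), with a median of 0.835. Akr1c14 was nearest to Gsta3, a glutathione transferase subunit, at 0.117, and then to Tmem62 (0.141) and Dnaja3 (0.147), with a median of 0.484. These distances share the same arrays and so describe them only.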

How the data were processed

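RNA of 19 rat liver samples was measured on Affymetrix Rat230_2 arrays. The log2 values deposited by the authors were made with RMA, per the submitters' processing notes, a method that corrects background, equalises the distributions of the arrays and summarises the probes of a probe set. The sources used here give no version of it. Folds of very dim and very bright transcripts are compressed in such array values. Array medians lay between 6.05 and 6.16. The number of arrays limits the precision.

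Tests covered 31042 probe sets, 57 controls being dropped. Of these, 20826 had 1 symbol in the platform annotation (20758 updated through RefSeq gene IDs), 436 had several and 9780 had none. Promoter sequences and loci are RefSeq's for GRCr8. The members, family lists, markers, tests and alternatives were chosen with earlier results of these data known. All members were named whatever their result, as was each listed relative that passed; nearest genes were the 3 with the smallest distance.

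The submitters' R/maanova was not used. limma 3.58.1 in R 4.3.3 fitted 1 mean per dose group over all 19 arrays (degrees of freedom: 15 residual, 2.78 prior). Its moderated two-sided p-values were adjusted by Benjamini-Hochberg over every probe set tested, and 0.05 was the threshold. The fit was tested on simulated data. Alternatives were a filter on dim probe sets, a trend and robust variance prior, the compared groups alone, a replicate block, a block of arrays 1 to 8 against 9 to 20, median centring, cyclic loess, tissue levels as covariates, the mean of a gene's probe sets and each array left out. Fits without the libraries that stand apart were added after the data had been seen.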

Additional observations from a re-analysis of the deposited data

Results flagged for a closer look

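In 40 groups (10 enzymes at 4 doses), 4 held an array whose gap to the nearest other array of its group, over the range of the group, passed Dixon's 95% limit; chance flags about 1 in 20 groups. Ces2c read 7.372 in 0.1 mg/kg replicate 1, where the others of the group read 5.965 to 6.346. Aldh1a1 read 12.13 in vehicle replicate 2 against 8.459 to 9.319. Cbr1 read 8.614 in 0.1 mg/kg replicate 2 against 7.906 to 7.981, and 8.568 in 50 mg/kg replicate 3 against 8.055 to 8.178. The first of these libraries also stood apart in Cyp1a1 (14.06), and the other 3 are those with kidney transcripts above the rest (mean of 8 markers 9.55, 9.45 and 6.67). Their part in these values was not tested.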

How the results depend on the processing

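No called value changed sign under any alternative. At 50 mg/kg Ces2c passed in all 32 alternative fits, Ephx1 in 31 and Akr1c14 in 30, and no fit without 1 array (19 fits) lost any of these calls. The members that passed at 50 mg/kg numbered 3 (3 to 3 with 1 array left out), 1 with tissue levels as covariates, 5 without the 3 libraries, 5 with the block of arrays without them and 5 with 50 mg/kg replicate 3 left out as well; at 15 mg/kg that last fit gave 1 member instead of 0 (0 to 0 with 1 array left out). The probe sets that passed at 50 mg/kg numbered 499 (178 to 704 with 1 array left out), 57 with the block of array numbers, 45 with tissue levels and 216 with the block without the 3 libraries. That count was 237, 253, 259 and 222 without vehicle replicates 1, 2, 4 and 5, and 178, 301, 330 and 230 without 50 mg/kg replicates 1 to 4. At 15 mg/kg it was 0 (0 to 11 with 1 array left out; 11 without 0.1 mg/kg replicate 1 and 3 without 0.1 mg/kg replicate 2), 4 with the filter, 2 with the compared groups alone, 7 with the block of arrays, 4 with the mean of probe sets, 10 without the 3 libraries, 14 with the block without them and 12 without 50 mg/kg replicate 3 too. Between 50 and 15 mg/kg it was 2 instead of 0 without the near-equal pair. The causes were not tested. The filter dropped Ces1d and Akr1b8. The replicate block left 3 members (Akr1c14 adjusted p = 0.0158 in limma) and 511 probe sets at 50 mg/kg. It changed no other call of a member. Deviations of same-numbered arrays correlated above 0.1 in 11 of 27 pairs (-0.534 to 0.889). The median correlation was 0.036 for same-numbered arrays and 0.0016 for differently numbered ones. Whether the numbers pair the arrays was not tested. Dim signals limit Ces1d and Akr1b8, and the top of the range limits Adh1.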
